A study of Mus musculus with 6 samples.

Results

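The genes described here are Saa3 and 5 partners of the acute phase response, Lcn2, Hp, Fpr1, Fpr2 and Cp, which are 6 of the 16516 genes in the deposited table. They were taken by gene symbol and selected on their difference in counts between 4LPS and NS samples, so that difference is described here and not tested. Their RNA-seq values come from CD11b+ cells, taken with magnetic beads from the cortex of male C57BL6/J mice aged 8 to 10 weeks. The NS group received normal saline intraperitoneally on 4 successive days, and the 4LPS group received lipopolysaccharide (LPS) of Escherichia coli at 500 µg/kg on the same schedule. Cells were collected on day 7 after the first injection, each sample pooled 2 mice, and each group had 3 samples. The labels call these cells microglia, but a CD11b bead also retains neutrophils, monocytes, border-associated macrophages and NK cells.

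The acute phase response is the rise of a set of plasma and local defence proteins during infection, driven mainly by interleukin-6 and interleukin-1 through the transcription factors STAT3, C/EBP and NF-κB. The liver makes most of these proteins, while macrophages, neutrophils and glia make some of them locally. Serum amyloid A3, encoded by Saa3, is a local form of serum amyloid in the mouse. Lipocalin-2 (Lcn2) withholds iron from bacteria by binding their siderophores, haptoglobin (Hp) captures free haemoglobin, and ceruloplasmin (Cp) is a copper-containing ferroxidase. Fpr1 and Fpr2 encode formyl peptide receptors, which are G protein-coupled receptors that sense bacterial peptides. The receptor encoded by Fpr2 also binds serum amyloid A.

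Depth was nearly equal between groups, with 15158342 to 15746610 counts in NS samples and 15164115 to 15462402 in 4LPS samples. Levels are given as CPM, which are counts scaled to library size with TMM factors, or as FPKM, which are also scaled for gene length. The 12 microglia markers checked were detected in every sample, and their summed level was 53466 to 56075 CPM in NS and 53374 to 54555 CPM in 4LPS. NS replicate 3 stood apart in its other cell types. A choroid plexus signal of 10319 and 8628 CPM over 11 markers in NS replicates 1 and 2 was 1085 CPM in NS replicate 3, and neutrophil markers were highest there within NS. In 4LPS replicates 1, 2 and 3 the choroid plexus sum was 3422, 18 and 889 CPM.

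Saa3 passed from near absence in NS to a high level in 4LPS. It had 0, 1 and 0 counts in NS replicates 1, 2 and 3, and 4662, 5580 and 8440 counts in 4LPS replicates 1, 2 and 3. Every 4LPS sample was thus far above every NS sample, and 4LPS replicate 3 was the highest. In CPM the 4LPS samples stood at 314, 379 and 572, a mean of 422 ± 134 (SD, n = 3). A count of 0 in an NS library allows up to 0.189 CPM in replicate 1 and 0.186 CPM in replicate 3. The ratio of 4LPS to NS was 20219, with an exact 95% interval of 3628 to 798645 that covers counting error only. The fitted log2 fold change of Saa3 depends on how a single NS count is handled, so the ratio and its interval stand in its place. Saa3 took 0.0307% to 0.0546% of all counts in the 4LPS samples. By mean FPKM it ranked 29 of 16516 genes in 4LPS and 14407 in NS. This rank depends on the gene length used for FPKM. In CPM, which are not scaled for length, its 4LPS mean was below that of Cd14, at 444. NK cell markers were also higher in 4LPS. Within 4LPS their sum was highest in replicate 3, as was Saa3, while replicates 1 and 2 were in the other order. The 10 markers summed to 8.43, 8.61 and 13.2 CPM in NS replicates 1, 2 and 3 and to 116, 106 and 120 CPM in 4LPS, and 9 of the 10 were higher in edgeR. The part of these cells in the level of Saa3 was not tested. In bulk samples such as these, more cells of a type and more RNA per cell cannot be told apart.

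Saa3 lies on the minus strand of chromosome 7 of GRCm39 from 46361422 to 46365576, with 4 exons in its canonical transcript. Of 908 windows of 100 bases along that transcript, 0 recurred in the transcript of another gene, so reads of this length could be assigned to it. The other serum amyloid gene of the table, Saa2, had 1 count in all 6 samples together. The 250 bases before the start of Saa3 are shown because this is the member with the largest rise. The sequence is from RefSeq for GRCm38.p6 at chr7:46715677-46715926, minus strand, written 5′ to 3′, and differs in build from the gene coordinates above. Capitals mark 4 matches to a loose C/EBP pattern, TTNNGNAA or TTNCNNAA on the other strand.
Saa3: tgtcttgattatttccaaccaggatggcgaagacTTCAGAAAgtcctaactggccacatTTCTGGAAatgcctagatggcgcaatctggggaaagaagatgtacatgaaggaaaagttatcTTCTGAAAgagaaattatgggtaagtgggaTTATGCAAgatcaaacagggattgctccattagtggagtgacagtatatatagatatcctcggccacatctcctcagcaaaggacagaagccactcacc
The pattern is common, with a match in 36.8% of 32851 RefSeq promoter windows of this length. The match nearest to the start, TTATGCAA, begins 99 bases before it. No match to a STAT pattern (TTCNNNGAA, in 7.02% of windows), an NF-κB pattern (GGGA, any 4 bases and CC, on either strand, in 17.6%) or TATAAA (either strand, in 12.4%) was found in this window of Saa3, which says only that these letters are not there.

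**Figure D1:**
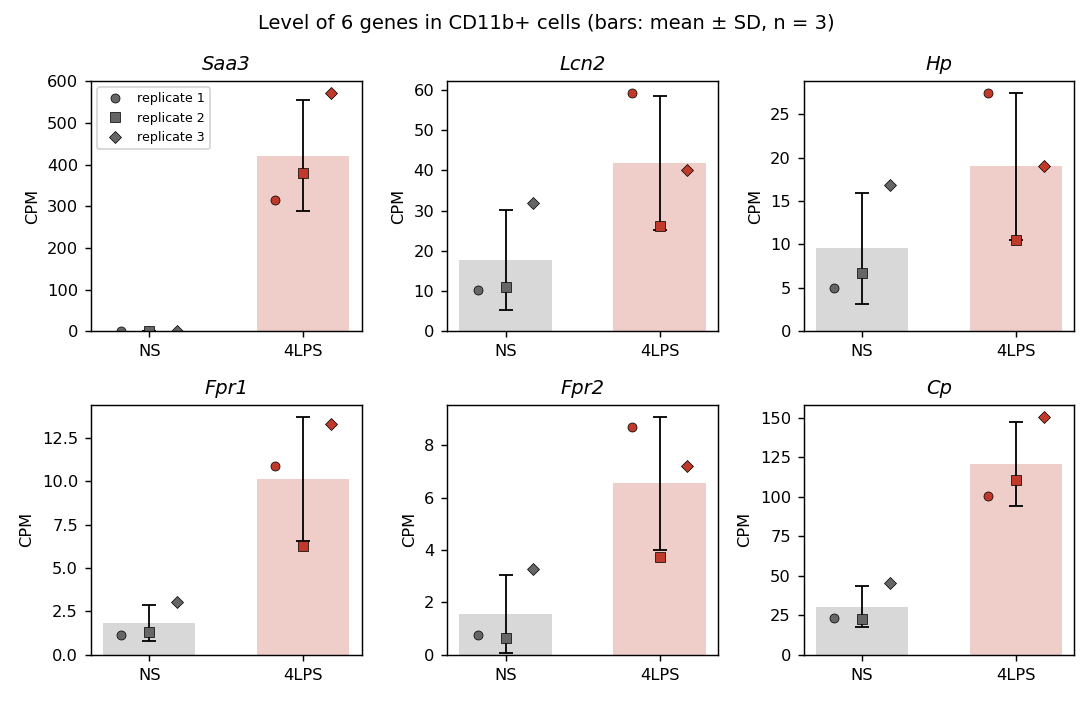
Level of each of the 6 genes in CPM (y axis, linear and from 0, its range differing between panels) in NS and 4LPS samples, with bars for the mean, error bars for the SD (n = 3) and a symbol for each replicate. Saa3 is at 314 to 572 CPM in 4LPS and near 0 in NS, Fpr1, Fpr2 and Cp do not overlap between groups, and for Lcn2 and Hp the NS replicate 3 lies above the 4LPS replicate 2.

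Lcn2 and Hp were higher on average in 4LPS, but their groups overlapped. Lcn2 was at 10.3, 10.9 and 32.0 CPM in NS replicates 1, 2 and 3, and at 59.2, 26.2 and 40.1 CPM in 4LPS replicates 1, 2 and 3. NS replicate 3 was above 4LPS replicate 2. The means were 17.7 ± 12.4 and 41.8 ± 16.6 CPM (SD, n = 3 each), and the log2 fold change was 1.24 (standard error, SE, 0.47). Hp was at 5.04, 6.73 and 16.9 CPM in NS and at 27.5, 10.5 and 19.0 CPM in 4LPS, again for replicates 1, 2 and 3. Here too, NS replicate 3 exceeded 4LPS replicate 2. The means were 9.54 ± 6.39 and 19.0 ± 8.46 CPM (SD, n = 3 each), with a log2 fold change of 0.99 (SE 0.48). For both genes the samples had the same order within each group, and the highest NS sample was 3.12 times the lowest for Lcn2 and 3.35 times for Hp. Without NS replicate 3 the log2 fold changes were 1.99 for Lcn2 and 1.69 for Hp, and without 4LPS replicate 1 they were 0.92 and 0.64.

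Lcn2 and Hp are also abundant products of neutrophils, and both moved in step with neutrophil markers in these libraries. Of 16 markers, Csf3r, a growth factor receptor, stood at 697 to 923 CPM, far above the others, so the other 15 markers were summed without it, a choice made after its values were seen. The 15 markers summed to 208, 218 and 808 CPM in NS replicates 1, 2 and 3 and to 1275, 538 and 838 CPM in 4LPS replicates 1, 2 and 3. NS replicate 3 was again above 4LPS replicate 2. All 15 had counts in every sample. Of the 15 of 16 markers tested, Csf3r was higher (edgeR adjusted p = 0.0141) and 14 did not pass. S100a8 and S100a9, the calprotectin chains, had log2 fold changes of 1.06 and 1.06 (edgeR adjusted p = 0.234 and 0.228). Per 1000 CPM of these markers, Lcn2 was at 49.4, 49.9 and 39.6 CPM in NS and at 46.5, 48.6 and 47.9 CPM in 4LPS. This ratio overlapped between groups, and its mean was 46.3 ± 5.82 in NS and 47.7 ± 1.10 in 4LPS (SD, n = 3 each). For Hp the ratio was 24.2, 30.9 and 20.9 in NS and 21.5, 19.6 and 22.7 in 4LPS, again overlapping. Monocyte markers had the same high NS sample, with sums of 221, 165 and 412 CPM in NS and 330, 248 and 364 CPM in 4LPS over 10 genes. The part of these cells in the levels of Lcn2 and Hp was not tested.

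**Figure D2:**
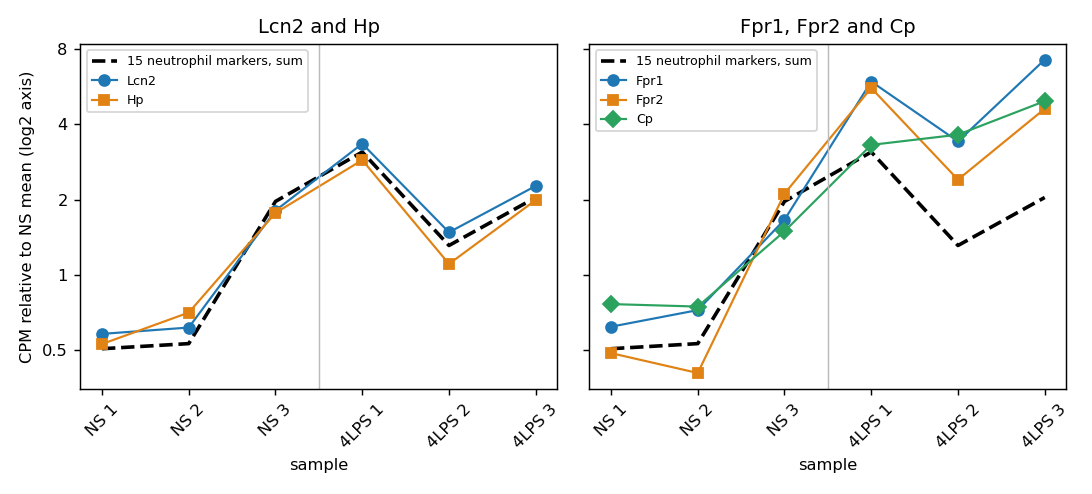
Level relative to the NS mean (y axis, log2 scale) in each of the 6 samples (x axis) for Lcn2 and Hp on the left and Fpr1, Fpr2 and Cp on the right, with the sum of 15 neutrophil markers dashed in both. Lines join samples only to make each gene easy to follow. Lcn2 and Hp rise and fall with the dashed line, while Fpr1, Fpr2 and Cp lie above it in all 3 of the 4LPS samples, by the least for Cp in 4LPS replicate 1.

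Lcn2 lies on the minus strand of chromosome 2 of GRCm39 from 32274645 to 32278264 and Hp on the minus strand of chromosome 8 from 110301759 to 110305804. They have 6 and 5 exons, and 0 windows of 100 bases in their canonical transcripts recurred in other genes. The 250 bases before the start of Lcn2, from RefSeq for GRCm38.p6 at chr2:32387740-32387989 on the minus strand, are shown for comparison with Saa3. Capitals mark the single match to the C/EBP pattern, TTGCTCAA.
Lcn2: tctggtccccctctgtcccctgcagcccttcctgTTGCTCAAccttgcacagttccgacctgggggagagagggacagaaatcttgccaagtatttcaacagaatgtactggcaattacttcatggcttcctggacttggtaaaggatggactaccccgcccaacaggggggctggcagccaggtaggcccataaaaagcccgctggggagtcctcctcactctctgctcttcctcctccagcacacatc
It begins 216 bases before the start, as does the farthest of the 4 matches of Saa3, the nearest of which begins 99 bases before.

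Both formyl peptide receptor genes had higher values in every 4LPS sample than in any NS sample. Fpr1 was at 1.13, 1.32 and 3.04 CPM in NS replicates 1, 2 and 3 and at 10.9, 6.25 and 13.3 CPM in 4LPS replicates 1, 2 and 3. Its lowest 4LPS sample, replicate 2, was above its highest NS sample, replicate 3. The means were 1.83 ± 1.05 and 10.1 ± 3.57 CPM (SD, n = 3 each), and the log2 fold change was 2.46 (SE 0.42). Fpr2 was at 0.76, 0.63 and 3.29 CPM in NS and at 8.70, 3.74 and 7.19 CPM in 4LPS, again for replicates 1, 2 and 3. The gap between groups was small, since NS replicate 3 had 53 counts and 4LPS replicate 2 had 55. The log2 fold change was 2.06 (SE 0.61). Without NS replicate 3 the log2 fold changes were 3.04 for Fpr1 and 3.23 for Fpr2. Neutrophils and monocytes carry both receptors, and the sums of their markers were also high in NS replicate 3. Per 1000 CPM of the 15 neutrophil markers, Fpr1 was at 3.76 to 6.06 CPM in NS and 8.52 to 15.9 CPM in 4LPS, with no overlap. For Fpr2 the same ratio was 2.89 to 4.06 in NS and 6.83 to 8.57 in 4LPS, with no overlap either. The ratio of the means, 4LPS over NS, was 2.36 for Fpr1, 2.11 for Fpr2, 1.71 for Cp, 1.03 for Lcn2 and 0.84 for Hp. How many of all genes lack overlap in this ratio is not given here, so nothing is read from it. The part of these cells in the levels of Fpr1 and Fpr2 was not tested. Fpr1 exceeded Fpr2 in 5 of 6 samples by CPM, the exception being NS replicate 3.

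Fpr1 and Fpr2 are neighbours on chromosome 17 of GRCm39, 3868 bases apart and pointing away from each other. Fpr1 runs from 18096733 to 18104202 on the minus strand and Fpr2 from 18108070 to 18114215 on the plus strand, each with 2 exons. In Fpr2, 13.1% of windows of 100 bases recurred in the pseudogene Gm5966, so part of its reads could be shared, while in Fpr1 0 windows recurred. The 250 bases before each start are printed because the pair sits so close. They are from RefSeq for GRCm38.p6, at chr17:17883940-17884189 (minus strand) and chr17:17887574-17887823 (plus strand). Capitals mark matches to the C/EBP, STAT and TATAAA patterns given for Saa3.
Fpr1: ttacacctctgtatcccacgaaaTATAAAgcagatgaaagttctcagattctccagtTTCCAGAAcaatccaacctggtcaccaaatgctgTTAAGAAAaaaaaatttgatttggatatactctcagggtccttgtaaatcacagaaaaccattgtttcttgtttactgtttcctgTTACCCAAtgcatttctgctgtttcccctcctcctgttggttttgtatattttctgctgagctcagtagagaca
Fpr2: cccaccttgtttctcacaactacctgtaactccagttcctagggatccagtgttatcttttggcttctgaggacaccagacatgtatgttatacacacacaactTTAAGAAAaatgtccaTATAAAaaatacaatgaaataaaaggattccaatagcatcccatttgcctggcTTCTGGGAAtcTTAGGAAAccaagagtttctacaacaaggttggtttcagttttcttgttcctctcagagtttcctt
Fpr1 has 3 C/EBP matches and Fpr2 has 2. Fpr2 is the only one of the 5 members with a promoter entry whose window holds the STAT pattern, as TTCTGGGAA, 77 bases before the start.

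Cp was higher in every 4LPS sample than in any NS sample. It was at 23.2, 22.7 and 45.4 CPM in NS replicates 1, 2 and 3 and at 101, 111 and 151 CPM in 4LPS replicates 1, 2 and 3. The means were 30.5 ± 13 and 121 ± 26.5 CPM (SD, n = 3 each), and the log2 fold change was 1.99 (SE 0.28). Its spread within 4LPS was the smallest of the 6 genes, with a highest sample 1.5 times the lowest, against 1.82 times for Saa3 and 2.61 times for Hp. Cp and Saa3 shared the order of 4LPS samples, which differed from that of Lcn2 and Hp. The level of Saa3 over that of Cp in CPM was 3.12, 3.43 and 3.79 in 4LPS replicates 1, 2 and 3. Cp is also made by the choroid plexus and by astrocytes. The choroid plexus sum was highest in NS replicates 1 and 2, where Cp was lowest, and it was 18 CPM in 4LPS replicate 2, where Cp was at 111 CPM. The summed level of 10 astrocyte markers was 298 to 319 CPM in NS and 216 to 250 CPM in 4LPS, and 5 of the 10 were lower. Per 1000 CPM of neutrophil markers Cp was at 56.2 to 112 CPM in NS and 79.0 to 206 CPM in 4LPS, which overlapped. Summed border-associated macrophage markers were 1554 to 1577 CPM in NS and 1691 to 2110 CPM in 4LPS over 10 genes, of which Ms4a7 and Stab1 were higher (edgeR adjusted p = 0.0304 and 0.0131). Most of that sum was Stab1, and the other 9 genes, summed without it after its values were seen, overlapped between groups at 300.3, 328 and 441 CPM in NS and 555, 246 and 380 CPM in 4LPS. The part of these cells in the level of Cp was not tested.

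Cp occupies the plus strand of chromosome 3, positions 20011090 to 20063930 in GRCm39. Its canonical transcript has 19 exons, and 0 of its windows of 100 bases recurred in other genes. RefSeq gives it 2 starts. The window before the downstream start, at chr3:19956999-19957248 of GRCm38.p6 on the plus strand, is shown because it is the only member window with a match to the NF-κB pattern, GGTTTTTCCC, 146 bases before the start.
Cp: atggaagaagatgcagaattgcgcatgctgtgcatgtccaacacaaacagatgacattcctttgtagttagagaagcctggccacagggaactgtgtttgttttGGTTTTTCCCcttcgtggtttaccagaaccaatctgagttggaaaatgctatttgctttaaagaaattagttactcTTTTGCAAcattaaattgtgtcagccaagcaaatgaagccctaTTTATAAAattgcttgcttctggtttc
Capitals also mark a C/EBP match, TTTTGCAA, and overlapping TATAAA matches on both strands that begin 27 and 25 bases before the start. Each of the 5 members with a promoter entry had a C/EBP match, a pattern present in 36.8% of all windows.

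By the edgeR fit over 13151 genes, 3 of the 6 members (Saa3, Fpr1 and Cp) were called higher at an adjusted p under 0.05, where 9.95% of all genes tested were called higher and 6.43% lower. In 4 of the 6 (those 3 and Fpr2) the groups did not overlap, as in 19.9% of all genes tested for higher values in 4LPS. These members were picked with this contrast known, so nothing is read from either count. Their median log2 fold change was 2.03, against -0.02 over all genes tested, and for the same reason nothing is read from it. The number called was 3 without each of the other samples and 6 without NS replicate 3, the NS sample in which the 5 members other than Saa3 were highest. It was 4 with DESeq2, with no filter and in both limma fits on FPKM, and 5 with the replicate block.

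**Figure D3:**
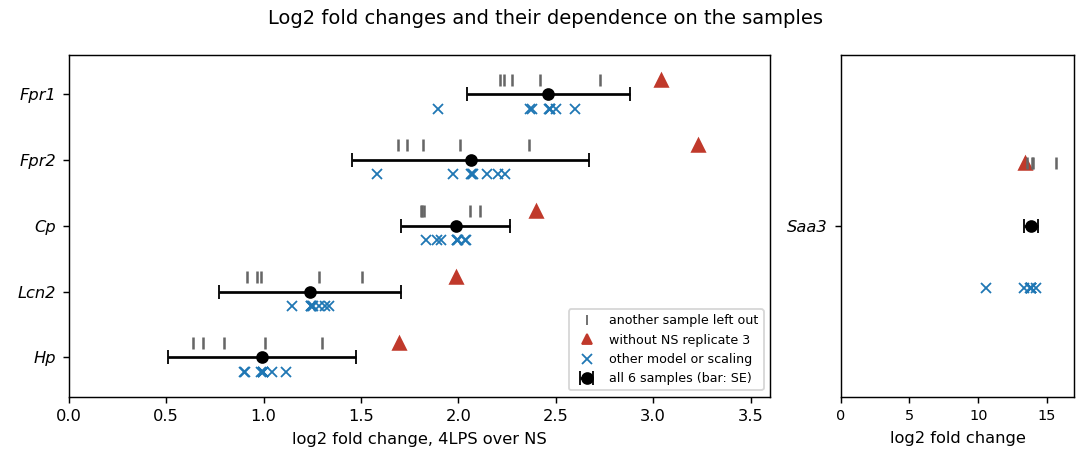
Log2 fold change of 4LPS over NS (x axis) for the 6 genes, with black points and bars for the estimate and standard error from all 6 samples, grey ticks and red triangles for fits with 1 sample left out, and blue crosses for other models and scalings. Saa3 has its own axis. All values are above 0, and for Lcn2, Hp, Fpr1, Fpr2 and Cp leaving out NS replicate 3 gave the highest, at 1.99, 1.69, 3.04, 3.23 and 2.40.

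Compared per length, Saa3 had the lowest level of the 6 genes in NS and the highest in 4LPS. In NS, mean levels were 32.0 FPKM for Lcn2, 9.26 for Hp, 8.14 for Cp, 1.82 for Fpr1, 1.58 for Fpr2 and 0.083 for Saa3. Hp and Cp overlapped in range, as did Fpr1 and Fpr2, while the other neighbours in this order were separate. In 4LPS the order was Saa3 at 1669 ± 597 FPKM, Lcn2 at 71.5 ± 28.9, Cp at 32.5 ± 6.91, Hp at 17.4 ± 7.84, Fpr1 at 9.45 ± 3.36 and Fpr2 at 6.27 ± 2.47 (SD, n = 3). Saa3, Lcn2 and Cp were separate in range from the gene below them, and Hp, Fpr1 and Fpr2 overlapped with their neighbours. The mean of Cp was below that of Hp in NS and above it in 4LPS, although Cp was above Hp in NS replicate 1, at 6.44 against 4.95 FPKM. The 6 genes together took 0.00424% to 0.0103% of counts in NS and 0.0508% to 0.0766% in 4LPS.

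The genes most like each member in profile differed in kind. Likeness was measured as the root mean square difference between profiles of log2(CPM + 1), each centred on its own mean, over the 6 samples and 12561 genes. The closest to Lcn2 were Cd177 and Mmp9, a surface protein and a protease of neutrophils, each at a difference of 0.077 log2 units. The closest to Hp were Cxcr2, a chemokine receptor of neutrophils, Ly6a2 and Gda, at 0.14, 0.15 and 0.17. For Fpr1 they were Ptger4, a prostaglandin E2 receptor, Hcar2, a receptor for niacin and ketone bodies, and Acap1, at 0.19, 0.19 and 0.22. Fpr2 had Acap1, Mmp8, a neutrophil collagenase, and Itgal, an integrin chain of leukocytes, at 0.18, 0.18 and 0.20. For Cp they were H2-Q9, an MHC class I gene that can share reads with its relatives, Ptger4 and Gimap8, at 0.19, 0.19 and 0.21. Saa3 had no close match by this measure. The measure keeps the size of a change, and Saa3 had the largest of the 6, so its distances say little about the shape of its profile. Its nearest genes, Ccl5, Il2rb and Gzma, were 2.04, 2.38 and 2.43 log2 units away. Ccl5 was at 1.32, 1.19 and 2.29 CPM in NS and at 56.8, 55.0 and 74.2 CPM in 4LPS, for replicates 1, 2 and 3. Cd177, Mmp9, Mmp8 and Cxcr2 are among the neutrophil markers summed here, Itgal is among the monocyte markers and Gzma among the NK cell markers. These points share libraries, so the distances are a description.

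The genes beside the members on the chromosomes changed less than the members. The members were selected on this contrast and their neighbours were not, so nothing is read from that difference. Within 100 kb of a member, 22 other genes were in the table and 17 were tested. Beside 9.95% of all genes called higher, those higher here were Hps5, Gtf2h1, Dhx38 and Hltf. The largest of these was Hps5, a trafficking factor near Saa3, with a log2 fold change of 0.51 (SE 0.05, edgeR adjusted p = 0.000500). Saal1, which lies 1265 bases from Saa3, had a log2 fold change of 0.01 (edgeR adjusted p = 0.957). For the 7 neighbours tested around Lcn2 the log2 fold changes ran from -0.17 to 0.15, and the smallest adjusted p was 0.142 in edgeR. Cp overlaps Hps3 on the opposite strand, with a log2 fold change of 0.18 for Hps3 (edgeR adjusted p = 0.0832), and without strand their reads cannot be told apart where they overlap. This window was chosen after the members' values were seen.

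Other acute phase genes moved unevenly. Of 30 listed, 18 were in the table and 10 were tested, of which Serpina3g, Cfb, C3 and C4b rose and 6 did not pass, beside 9.95% of all genes called higher. The median log2 fold change of the list was 0.13, against -0.02 for all genes. C3, the central complement protein, was at 7.49, 9.49 and 26.0 CPM in NS replicates 1, 2 and 3 and at 89.4, 77.7 and 101 CPM in 4LPS, with NS replicate 3 again the highest of its group. Its log2 fold change was 2.64 (SE 0.41, edgeR adjusted p = 0.00476), and it was 3.40 without NS replicate 3. Cfb, a protease of the alternative complement pathway, rose from 0.69 ± 0.28 to 8.85 ± 2.68 CPM (edgeR adjusted p = 4.08e-04), and C4b from 30.5 ± 10.8 to 103 ± 19.5 CPM (SD, n = 3 each, edgeR adjusted p = 0.00281). Serpina3g, a serpin of activated leukocytes, rose from 0.15 ± 0.07 to 4.72 ± 0.51 CPM (edgeR adjusted p = 1.20e-04). Serpina3n, a classical acute phase serpin of astrocytes, had too few counts for the test, with 3 in NS and 20 in 4LPS in all. Lbp, which carries LPS, was at 50.5, 38.5 and 11.8 CPM in NS and 22.5, 7.27 and 10.6 CPM in 4LPS (edgeR adjusted p = 0.141). From highest to lowest, the 6 samples had the same order for Lbp as for the choroid plexus sum.

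Among 12 receptors of acute phase proteins tested, Tlr2, Cd14, P2rx7 and Scarb1 rose and 8 did not pass, beside 9.95% of all genes called higher. Tlr2, a receptor for bacterial lipoproteins that also answers to serum amyloid A, was at 132, 138 and 161 CPM in NS and at 267, 299 and 339 CPM in 4LPS, a log2 fold change of 1.07 (SE 0.10, edgeR adjusted p = 4.59e-04). Its groups were well apart, and its highest sample in 4LPS, replicate 3, was also that of Saa3. Cd14, the LPS co-receptor, and P2rx7, an ATP-gated channel, had log2 fold changes of 0.58 and 0.27 (edgeR adjusted p = 0.00108 and 0.00746). Scarb1, a lipoprotein receptor that binds serum amyloid A, had one of 0.31 (edgeR adjusted p = 0.0165), but did not pass without a composition factor (0.0529) or without NS replicate 1 (0.0646). P2rx7 did not pass once the choroid plexus level was added to the model (0.0529), nor did Scarb1 (0.0813), and Scarb1 did not pass in limma on FPKM (0.0526 and 0.0531). Tlr4, the LPS receptor, had a log2 fold change of 0.12 (edgeR adjusted p = 0.421). Cd163, which takes up haptoglobin bound to haemoglobin, was at 25, 27.5 and 36.9 CPM in NS and 64.8, 18.6 and 29.2 CPM in 4LPS (edgeR adjusted p = 0.603). Slc22a17, a receptor for lipocalin-2, was at 243, 215 and 61.5 CPM in NS and 107, 45.3 and 69.0 CPM in 4LPS (edgeR adjusted p = 0.125), high where the choroid plexus sum was high.

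In the signalling of formyl peptide receptors, 18 genes were tested. Hebp1, Plcb2 and Rac2 rose, Gng2 fell and 14 did not pass, beside 9.95% of all genes called higher and 6.43% lower. Hebp1, the source of a peptide ligand of these receptors, rose from 23.5 ± 1.97 to 43.4 ± 2.31 CPM (SD, n = 3 each), and the log2 fold change was 0.88 (SE 0.08, edgeR adjusted p = 4.36e-04). Plcb2, a phospholipase below the receptors, and Rac2, a GTPase of the oxidative burst and of migration, had log2 fold changes of 0.37 and 0.49 (edgeR adjusted p = 0.0015 and 0.00470). Gng2, a G protein subunit, fell by 0.22 on the log2 scale (edgeR adjusted p = 0.0181), but did not pass without 4LPS replicate 2 (0.0849), without 4LPS replicate 3 (0.0671) or with the choroid plexus covariate (0.103). The ligands Anxa1 and Camp followed the neutrophil markers. Anxa1 was at 11.3, 7.73 and 28.5 CPM in NS and 37.8, 18.9 and 30.4 CPM in 4LPS (edgeR adjusted p = 0.218). Camp, itself a neutrophil granule peptide and one of the 15 markers, had a log2 fold change of 0.90 (edgeR adjusted p = 0.263).

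Several iron genes rose beside Cp. Of 18 tested, Slc11a2, Fth1, Hmox1, Ftl1, Slc11a1, Trf and Aco1 rose and 11 did not pass, beside 9.95% of all genes called higher. The median log2 fold change of the list was 0.06, against -0.02 for all genes. Among those that did not pass, Tfrc, the transferrin receptor gene, had a log2 fold change of -0.57 (edgeR adjusted p = 0.0653). The call of Aco1 (edgeR adjusted p = 0.0487) was lost in 13 of 14 alternatives, with 0.0614 to 0.137 when any 1 sample was left out. Trf (edgeR adjusted p = 0.0199) did not pass without NS replicate 1 (0.0681) or without 4LPS replicates 1, 2 or 3 (0.0712, 0.0579 and 0.0563), nor without a composition factor (0.0652) or in limma on FPKM (0.0577 and 0.0580). Fth1, the ferritin heavy chain, was at 592, 550 and 561 CPM in NS and at 855, 943 and 964 CPM in 4LPS, a log2 fold change of 0.70 (SE 0.06, edgeR adjusted p = 3.61e-04). Ftl1, the light chain, and Hmox1, which breaks down haem, had log2 fold changes of 0.61 and 0.60 (edgeR adjusted p = 0.00263 and 0.000500). Slc11a2, an importer of ferrous iron, had one of 0.81 (edgeR adjusted p = 2.24e-04). The exporter Slc40a1, whose iron is oxidized by ceruloplasmin, had a log2 fold change of -0.04 (edgeR adjusted p = 0.703). Heph, a relative of Cp with the same ferroxidase activity, was at 1.12 to 4.03 CPM in NS and 0.61 to 1.28 CPM in 4LPS (edgeR adjusted p = 0.0991).

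Among 29 inducers and transcription factors of the acute phase tested, 10 rose, Il6st fell and 18 did not pass, beside 9.95% of all genes called higher. The median log2 fold change of the list was 0.19. The interleukin genes Il6, Il1a and Il1b did not pass, with log2 fold changes of -0.73, 0.19 and 1.13 (edgeR adjusted p = 0.147, 0.491 and 0.170). Nfkb2 rose from 44.7 ± 2.02 to 86.0 ± 9.64 CPM (SD, n = 3 each), and the log2 fold change was 0.94 (SE 0.09, edgeR adjusted p = 3.77e-04). Relb, Bcl3, which binds NF-κB subunits, and Tyk2, a kinase of cytokine receptors, had log2 fold changes of 0.84, 1.39 and 0.29 (edgeR adjusted p = 0.00105, 0.00522 and 0.00716). Cebpb and Cebpa, which encode C/EBP factors, had log2 fold changes of 0.61 and 0.39 (edgeR adjusted p = 0.0122 and 0.0410). Cebpd, of the same family, had one of -0.02 (edgeR adjusted p = 0.877). Il6st, the signalling chain of the interleukin-6 receptor, fell by 0.35 on the log2 scale (edgeR adjusted p = 0.0306), but did not pass without NS replicate 1 (0.0949) or without 4LPS replicates 1, 2 or 3 (0.0723, 0.0897 and 0.0818), nor with the choroid plexus covariate (0.0563). Stat3 had a log2 fold change of 0.03 (edgeR adjusted p = 0.719). The number of genes called in this list was 6 without NS replicate 1, 7 without 4LPS replicate 2 and 6 without 4LPS replicate 3.

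**Figure D4:**
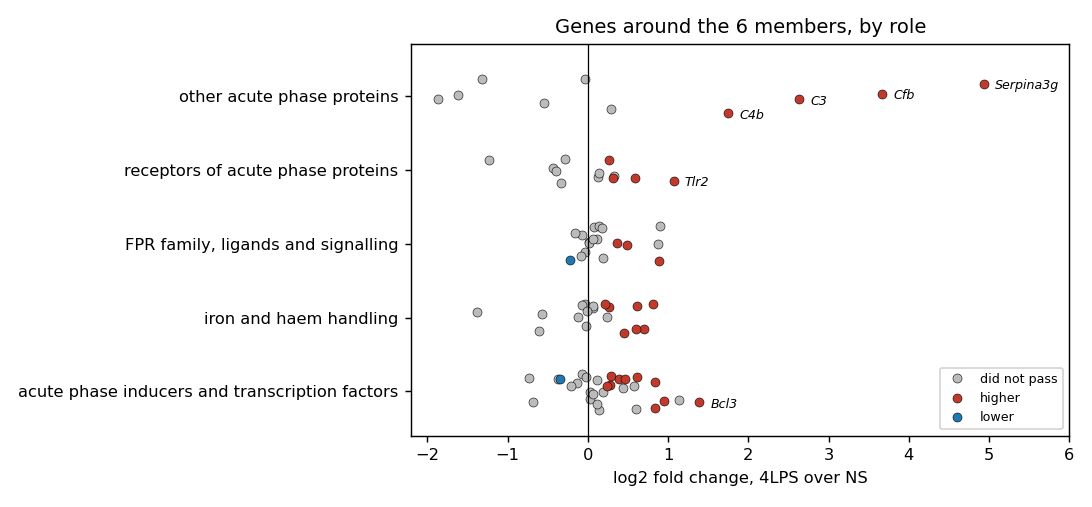
Log2 fold change of 4LPS over NS (x axis) for the tested genes of 5 lists around the 6 members (y axis), with red for genes that rose, blue for genes that fell and grey for genes that did not pass at an adjusted p under 0.05 in edgeR. Genes called beyond a log2 fold change of 1 are named, and they are Serpina3g, Cfb, C3, C4b, Tlr2 and Bcl3.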

How the data were processed

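RNA from CD11b+ cells of 3 NS and 3 4LPS samples was sequenced as paired reads. The authors filtered the reads with SOAPnuke, mapped them with HISAT2 and Bowtie2 (mm39 in the methods, mm39 and mm10 in the processing notes) and estimated expression with RSEM. Which gene models were used was not given in the sources used here. Deposited values used below are the authors' expected counts, estimated by RSEM and not normalized, and their FPKM, scaled for gene length and library total. The TPM values, the normalized signal and the group means that the authors deposited were not analysed. Whether counting used strand is not stated.

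Counts were rounded (2.77% had decimals). Tests used edgeR 4.0.16 under R 4.3.3 (TMM, filterByExpr, quasi-likelihood test, Benjamini-Hochberg over 13151 genes). All 6 members passed the filter. The standard error is the log2 fold change over the square root of F. The script was tested on simulated data. Replicates differed by at least 5.92 times sampling noise (mean chi-square per gene), so none was a repeated library, and each came from a separate pool of mice. Genes named are the members, other Saa and Fpr genes, the 4 genes of each list with the lowest adjusted p under 0.05 (all of a direction where 5 or fewer passed), and the 3 genes nearest in profile to each member with a mean of at least 1 CPM. 1 of these is not reported here. Other genes were named for their role or position, after their values were seen. The members and lists were chosen with earlier results of these data known. Alternatives were other scalings, no filter, DESeq2 1.42.0, limma 3.58.1 on log2(FPKM + 1) and log2(FPKM + 0.1) where 3 samples reached 1 FPKM, a replicate block, a choroid plexus covariate and leaving out each sample. Symbols of 16024 genes matched GENCODE M39 (GRCm39).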

Additional observations from a re-analysis of the deposited data

How the results depend on the processing

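All 6 members had a log2 fold change above 0 in all 14 alternatives. With 1 sample left out these lay between 13.4 and 15.7 for Saa3, 0.92 and 1.99 for Lcn2, 0.64 and 1.69 for Hp, 2.21 and 3.04 for Fpr1, 1.69 and 3.23 for Fpr2, and 1.81 and 2.40 for Cp. The fitted value for Saa3, 13.8, was 14.2 with DESeq2, 10.5 with limma on log2(FPKM + 1) and 13.4 on log2(FPKM + 0.1), and these differ by construction, since its NS level is set by 1 count and the pseudocount.

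Over all genes, 1308 were higher and 845 lower. The counts were 823 and 1486 with limma on log2(FPKM + 1), 813 and 1454 on log2(FPKM + 0.1), and 832 and 431 with the choroid plexus covariate. Without a composition factor 906 were higher and 1711 lower, so that 34.6% of calls were higher against 60.8%, and the median of all genes was -0.11. With 1 sample left out, the higher genes numbered 781 (without NS replicate 1) to 1629 and the lower genes 363 (without 4LPS replicate 2) to 1215, fewer samples being part of each such fit. The cause of the other shifts was not tested.

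Of the lists, 4 acute phase genes, 4 receptors, 4 ligand and signalling genes of the formyl peptide receptors, 7 iron genes and 11 inducers were called. With the choroid plexus covariate 2 receptors and 6 inducers were called. With 1 sample left out, the numbers were 4 to 5, 3 to 5, 3 to 6, 5 to 7 and 6 to 15. Of 25 called genes named from the lists, 19 kept their call in all 14 alternatives, and the others, Scarb1, Gng2, Il6st, P2rx7, Trf and Aco1, lost it in 5, 3, 5, 1, 7 and 13. Cebpa is not among the 25, and its alternatives are not given here.

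Samples were not paired by replicate number in the main fit. The correlations below, from 3 samples per group, cannot decide whether they were collected as pairs. Deviations from the group mean correlated across genes, which are not independent, with an r of 0.51, -0.25 and 0.13 for numbers 1, 2 and 3. The r for number 1 was the highest of any NS and 4LPS pair, while NS replicate 3 was closest to 4LPS replicate 2 (0.46). With the replicate block, 1275 genes were higher and 1081 lower, and 5 of the 6 members were called. The low counts of Fpr1 and Fpr2, and 3 samples per group, limit the precision.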
